A study of Rattus norvegicus with 6 samples.

Results

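Chemokines are small secreted proteins that steer migrating cells, and each acts through one or more G protein-coupled receptors on the cell that responds. They are sorted by the spacing of their first cysteines into CC, CXC, CX3C and XC classes, and CXC members with a glutamate-leucine-arginine (ELR) motif attract neutrophils. Atypical receptors bind chemokines without the usual G protein signal and take them up or present them. In the brain, microglia and astrocytes release chemokines during inflammation, and neuronal fractalkine acts on a receptor that marks microglia.

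The genes described here are the chemokines and chemokine receptors of a bulk RNA-seq count table, chosen by symbol. The rule takes symbols that begin with Ccl, Cxcl, Ccr or Cxcr and the usual number, Ccrl and Ackr symbols, and Cx3cl1, Xcl1 and Xcr1. It found 53 of the 16876 genes in the table, made up of 20 CC ligands, 4 CXC ligands with ELR, 8 other CXC ligands, 2 ligands of the CX3C and XC classes, 16 signalling receptors and 3 atypical receptors. The table did not hold Ccr2, Ccr8, Ackr1 or Ackr4, which were not analysed here, and the rule does not reach Cx3cr1, Pf4 and Ppbp, which are given separately.

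Cells labelled as primary cultured microglia of the rat (Rattus norvegicus) were kept for 24 h with polystyrene nanoplastics (PSNPs) in 3 libraries, and the near-infrared dye IR-813 was given in the other 3. All 6 cultures were shaken off confluent co-cultures grown with 10% serum, and no dose is stated. The comparison asks which transcripts differ between the 2 exposures, in a study of how swallowed nanoplastics affect memory and brain inflammation. No untreated library was analysed here, so every difference below is PSNPs relative to IR-813, and nothing says that the replicates were separate cultures or animals. The deposited column names for IR-813 begin with con, and the titles, which say IR-813, were followed.

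Depth lay between 19166605 and 22553507 counts per library. Levels are given as CPM, counts scaled to a common library size, with library sizes adjusted by the trimmed mean of M-values (TMM). PSNPs replicate 3 stood apart, with correlations of log CPM of at most 0.974 with the other PSNPs libraries, which correlated at 0.995 with each other. Summed over 10 microglia markers, PSNPs libraries held between 814 and 963 CPM and IR-813 libraries between 1450.4 and 1925 CPM, and 8 of the 10 genes were lower. Markers of other cells were also found. The sums over 10 astrocyte markers were 7799 to 8609 CPM with PSNPs and 6546 to 8361 CPM with IR-813, with 5 genes higher and 1 lower. Those over 10 oligodendrocyte-lineage markers were 3257 to 3738 CPM with PSNPs and 5684 to 6623 CPM with IR-813, with all 10 lower. Border macrophage markers, 6 genes of which Cd163 had no count, summed to 29.3 to 44.4 CPM with PSNPs and 114 to 150.1 CPM with IR-813. Of 12 markers of infiltrating leukocytes, 6 (Cd3e, Cd3d, Ms4a1, Nkg7, Ly6c and S100a9) had no count in any library, and the list summed to 7.15 to 8.78 CPM with PSNPs and 27.9 to 40.0 CPM with IR-813, nearly all of it Cd4, which rat macrophages also carry. Fibroblast, pericyte and endothelial markers, 10 genes of which Col1a2 had no count, summed to 45.2 to 58.2 CPM with PSNPs and 71.9 to 103 CPM with IR-813, with 0 higher and 2 lower of 5 tested. The libraries thus held markers of several cell types, and in bulk RNA fewer cells of a type and less RNA per cell cannot be told apart. The part of cell makeup in the chemokine results was not tested.

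Of the 53 genes, 27 passed the filter on low counts and were tested. With PSNPs, 15 rose and 3 fell by edgeR's quasi-likelihood test at a Benjamini-Hochberg adjusted p under 0.05 over all 11679 genes tested, and 9 did not pass. The share that rose was 55.6%, where 20.9% of all tested genes rose, and the share that fell was 11.1%, where 20.1% of all tested genes fell. The median log2 fold change of the 27 genes was 0.76, beside −0.01 over all tested genes. The PSNPs and IR-813 libraries did not overlap for 20 of the 27 genes (74.1%), and for 61.4% of all tested genes. Fold changes above 2 were found for 12 of the genes that rose and for all 3 that fell. Without PSNPs replicate 3, 17 rose and 4 fell of 28 tested.

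**Figure D1:**
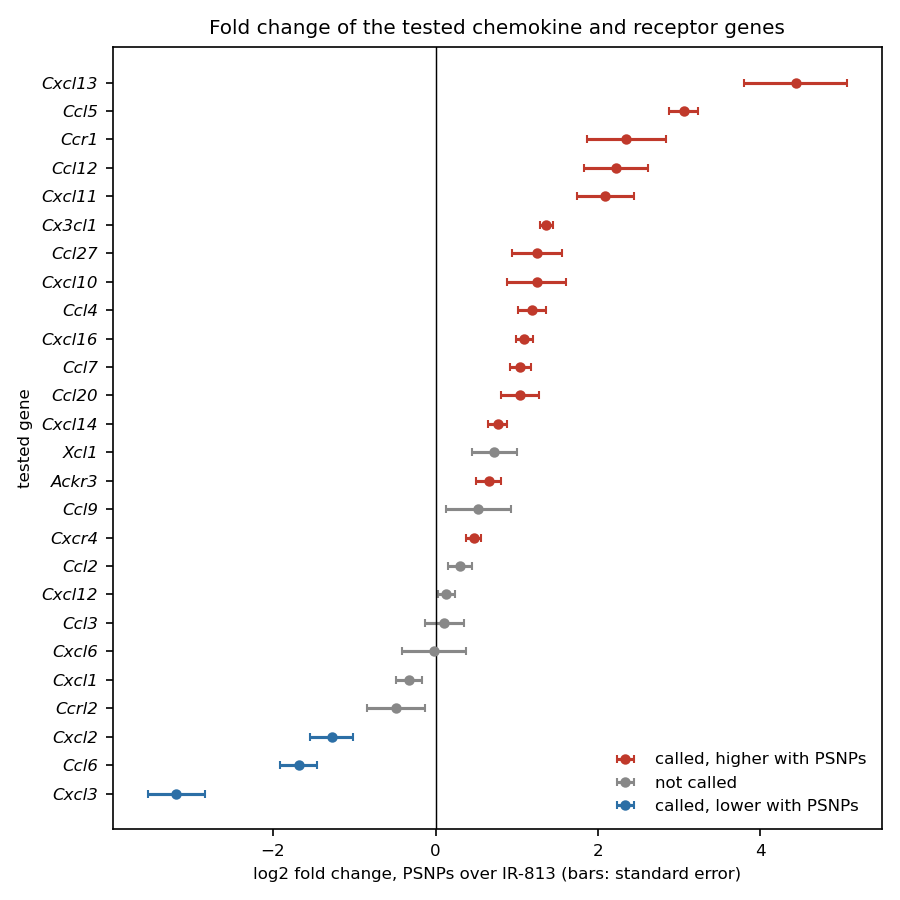
Log2 fold change of PSNPs over IR-813 for 26 of the 27 tested genes (points, with standard error bars), one gene per row. The 15 genes that rose lie between Cxcr4 (0.47) and Cxcl13 (4.43), and the 3 that fell are Cxcl2, Ccl6 and Cxcl3.

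The calls differed in direction within and between chemokine classes. No ELR chemokine was among the genes that rose, and 2 of the 4 fell (median −0.80). Of the 6 tested CXC ligands without ELR that the symbol rule takes, 5 rose (median 1.17). Pf4 (CXCL4), which also lacks ELR but lies outside the rule, fell by 3.09 ± 0.39 on the log2 scale (edgeR adjusted p = 0.00129). The ELR genes Cxcl1, Cxcl2, Cxcl3 and Cxcl6 are neighbours on rat chromosome 14 in the GRCr8 annotation, as are Cxcl9, Cxcl10 and Cxcl11. Of the others without ELR, Cxcl13 and Pf4 are also on chromosome 14. Cxcl12 is on chromosome 4, Cxcl14 on 17, Cxcl16 on 10 and Cxcl17 on 1. Of the 10 tested CC ligands, 6 rose and 1 fell (median 1.05). No test of these classes against each other was made.

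Promoter windows are shown for 5 of these genes because members of the family that rose, fell or did not pass carry the same kind of motif near their start. NF-kB is a family of transcription factors known to switch on many chemokine genes in inflammation. The windows run from 250 bases before to 50 bases after the annotated start, 5′ to 3′ on the gene's strand, are taken from RefSeq (GRCr8), and show matches to the NF-kB consensus on either strand in capitals. Overlapping matches, on opposite strands or shifted by 1 base, run together. Cxcl10 and Cxcl11, ligands of the receptor CXCR3, and Ccl7 rose, Cxcl2 fell, and Cxcl1 did not pass. The Cxcl10 window is chr14:15988816-15989115 (+ strand), the Cxcl11 window chr14:15973478-15973777 (+ strand), the Ccl7 window chr10:67513845-67514144 (+ strand), the Cxcl2 window chr14:17467206-17467505 (- strand) and the Cxcl1 window chr14:17479272-17479571 (- strand).
Cxcl10: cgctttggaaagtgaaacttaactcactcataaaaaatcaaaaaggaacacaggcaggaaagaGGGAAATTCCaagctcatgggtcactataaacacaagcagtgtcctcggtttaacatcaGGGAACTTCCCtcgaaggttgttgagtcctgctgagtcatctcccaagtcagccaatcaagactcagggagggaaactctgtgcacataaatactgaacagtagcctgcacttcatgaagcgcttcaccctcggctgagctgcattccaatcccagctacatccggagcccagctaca
Cxcl11: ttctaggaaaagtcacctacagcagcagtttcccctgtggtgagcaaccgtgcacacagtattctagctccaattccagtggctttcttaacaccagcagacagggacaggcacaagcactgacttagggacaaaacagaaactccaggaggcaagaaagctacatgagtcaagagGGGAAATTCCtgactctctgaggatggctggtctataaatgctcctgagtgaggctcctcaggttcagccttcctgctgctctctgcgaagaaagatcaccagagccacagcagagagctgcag
Ccl7: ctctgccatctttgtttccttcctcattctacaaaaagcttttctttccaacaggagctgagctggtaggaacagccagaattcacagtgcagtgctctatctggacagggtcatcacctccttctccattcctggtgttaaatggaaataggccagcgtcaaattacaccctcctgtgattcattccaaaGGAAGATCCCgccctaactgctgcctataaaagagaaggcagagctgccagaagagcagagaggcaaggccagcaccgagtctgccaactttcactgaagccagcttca
Cxcl2: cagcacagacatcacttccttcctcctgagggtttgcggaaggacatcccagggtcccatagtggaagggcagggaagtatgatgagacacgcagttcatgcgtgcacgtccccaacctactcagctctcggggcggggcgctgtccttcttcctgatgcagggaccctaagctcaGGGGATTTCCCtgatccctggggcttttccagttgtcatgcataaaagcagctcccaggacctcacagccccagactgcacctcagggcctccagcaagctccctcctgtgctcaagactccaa
Cxcl1: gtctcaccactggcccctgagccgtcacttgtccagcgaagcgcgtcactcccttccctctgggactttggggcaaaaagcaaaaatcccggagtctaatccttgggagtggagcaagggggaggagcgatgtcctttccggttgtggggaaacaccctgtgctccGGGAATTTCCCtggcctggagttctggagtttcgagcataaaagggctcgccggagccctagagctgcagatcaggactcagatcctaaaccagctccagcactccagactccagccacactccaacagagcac

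The windows at hand covered 41 of the 53 genes. Ccl2, Ccl3, Ccl4, Ccl5 and Cxcl3 were among the genes without a window, so the shares below leave them out. Among the 41 windows an NF-kB match was found in 9 (22.0%), and it was found in 7.51% of the 33469 windows of all genes. Matches in tested genes lay in Ccl7, Ccl20, Cxcl10 and Cxcl11, which rose, in Cxcl2, which fell, and in Ccl9, Cxcl1 and Cxcl6, which did not pass. The match was in 4 of the 13 windows of genes that rose and in 1 of the 2 windows of genes that fell, that of Cxcl2. Among tested genes it was in 8 of 21 windows of the family (38.1%) and in 10.1% of the 8867 windows of all tested genes with one. In Cxcl2 the first of its 2 overlapping matches started 74 bases before the start, as did the match in Cxcl11. The AP-1 motif TGANTCA was in 7 of the 41 windows (17.1%) and in 7.33% of all windows. It lay in the windows of Ccl7, Cxcl10, Cxcl11 and Cxcl14, all of which rose, and of Ccr3, Cxcr6 and Xcr1, which were under the filter. Of the 21 tested windows 13 belong to genes that rose, and 4 of these 13 have the AP-1 motif. Among tested genes that motif was in 4 of 21 windows of the family (19.05%) and in 5.04% of the windows of all tested genes. The interferon-response core GAAANNGAA was in 2 of the 41 windows (4.88%), those of Cxcl10 and Ccl19, and in 9.71% of all windows. A match is a description of letters and no binding was measured.

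**Figure D2:**
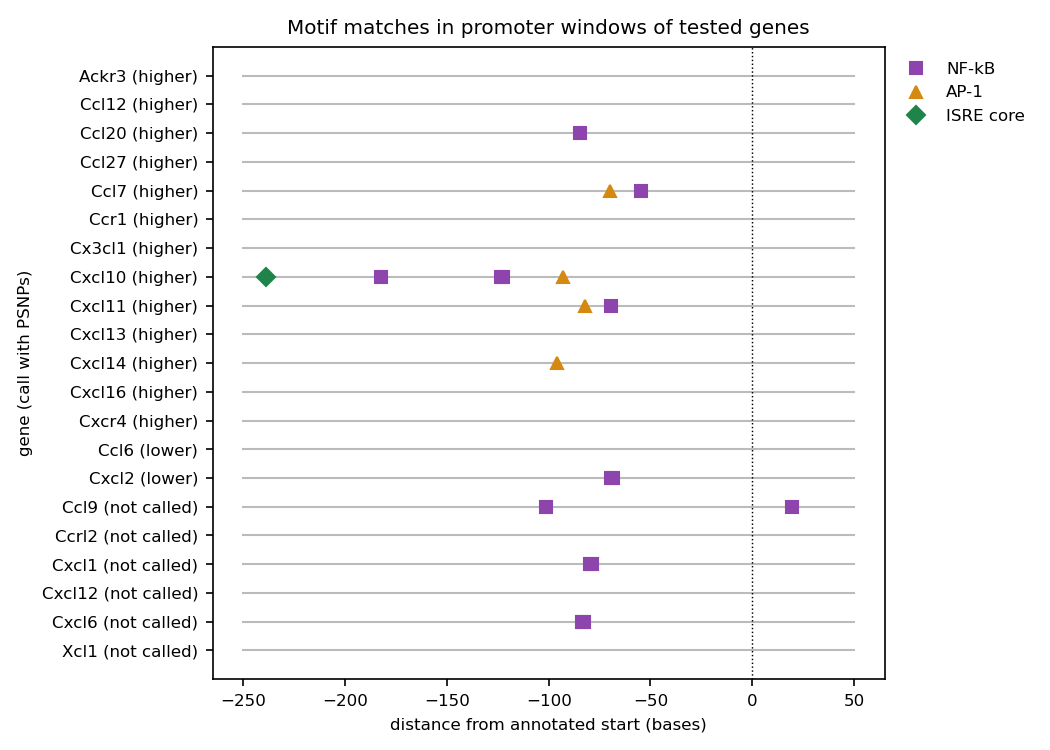
Matches to 3 motifs on either strand in the promoter windows of the 21 tested genes that have one, by distance from the annotated start in bases (dotted line at the start). NF-kB matches (squares) occur in genes called higher, lower (Cxcl2 alone) and not called.

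Among CC chemokines, 2 of the 3 ligands of CCR2 rose. Ccl7, a ligand of CCR2 and other receptors, was at 427, 379.7 and 499 CPM in PSNPs libraries, against 220.1, 224 and 188 CPM in IR-813 libraries. All 3 PSNPs libraries lay well above all IR-813 libraries, and Ccl7 rose 2.07-fold (log2 fold change 1.05 ± 0.13, SE; edgeR adjusted p = 0.00108). Its neighbour Ccl12, another CCR2 ligand, stood at 8.41, 8.17 and 7.46 CPM with PSNPs, against 0.805, 1.40 and 2.96 CPM with IR-813. The PSNPs libraries were close together while those with IR-813 spread, and Ccl12 rose by 2.22 ± 0.39 on the log2 scale (edgeR adjusted p = 0.00491). The rise was 1.87 without IR-813 replicate 1, 2.09 without replicate 2 and 2.86 without replicate 3. Ccl2, the main CCR2 ligand and the highest chemokine on the deposited log2 scale, was at 720.4, 677 and 880 CPM with PSNPs and at 665, 673 and 507 CPM with IR-813. The groups did not overlap but nearly met, and Ccl2 did not pass (0.30 ± 0.15, edgeR adjusted p = 0.145). The receptor CCR2 was not analysed here.

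The inflammatory CC ligands Ccl5, Ccl4 and Ccl3 did not move as a block. Ccl5 (RANTES), which attracts T cells and monocytes, was at 8.27, 10.1 and 9.97 CPM with PSNPs, against 1.16, 0.932 and 1.30 CPM with IR-813. This 8.31-fold rise (3.05 ± 0.18, edgeR adjusted p = 0.000105) was narrow in both groups. Ccl4, also called MIP-1 beta, was at 3.49, 3.18 and 4.23 CPM with PSNPs and at 1.52, 1.58 and 1.67 CPM with IR-813. The groups were clearly apart, and Ccl4 rose by 1.19 ± 0.17 on the log2 scale (edgeR adjusted p = 0.00237). Its neighbour Ccl3 (MIP-1 alpha) was at 35.3, 19.6 and 38.1 CPM with PSNPs and at 25.2, 30.1 and 31.0 CPM with IR-813, with PSNPs replicate 2 lowest of all, and did not pass (0.11 ± 0.24, edgeR adjusted p = 0.740). The sign of Ccl3 turned without PSNPs replicate 3 (−0.06).

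Ccl6, a rodent CC chemokine that macrophages make, was the only CC ligand that fell. It was at 2.44, 1.80 and 1.41 CPM in PSNPs libraries, against 5.32, 5.87 and 7.12 CPM in IR-813 libraries. Every PSNPs library was below every IR-813 library, and Ccl6 fell by 1.69 ± 0.23 on the log2 scale (edgeR adjusted p = 0.00176). Ccl6, like Ccl3, overlaps LOC103693406 in the GRCr8 annotation, and how reads there were counted is not stated. The related rodent gene Ccl9 was at 2.94, 0.955 and 2.87 CPM with PSNPs and at 1.34, 1.63 and 1.76 CPM with IR-813. Its low value in PSNPs replicate 2 made the groups overlap, and it did not pass (0.52 ± 0.40, edgeR adjusted p = 0.325). Without that library its log2 fold change was 0.88 (edgeR adjusted p = 0.0194), and 15 alternatives spanned 0.0194 to 1.00.

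Ccl20, which attracts CCR6-bearing lymphocytes and dendritic cells, was at 22.0, 18.6 and 26.6 CPM with PSNPs and at 8.86, 9.04 and 14.7 CPM with IR-813. The groups were apart, with IR-813 replicate 3 the nearest, and Ccl20 rose 2.06-fold (1.04 ± 0.23, edgeR adjusted p = 0.0122). Its adjusted p was 0.0520 when IR-813 replicate 1 was left out and 0.0539 when replicate 2 was. The 15 alternatives spanned 0.000200 to 0.105, the latter with the minimum fold of 1.5. Ccl27, a chemokine known from skin, was at 0.873, 1.54 and 1.57 CPM with PSNPs, against 0.582, 0.605 and 0.463 CPM with IR-813. These levels are between 10 and 30 counts per library, and Ccl27 rose by 1.25 ± 0.31 on the log2 scale (edgeR adjusted p = 0.0169). Leaving out any IR-813 library ended that call, with adjusted p of 0.0554, 0.0529 and 0.0609 without replicates 1, 2 and 3. For Ccl27 14 alternatives spanned 0.00902 to 0.1003, the latter with the minimum fold of 1.5. Ccl27 overlaps the receptor gene Il11ra1 in the GRCr8 annotation, which was far more abundant (26.0, 22.6 and 30.5 CPM with PSNPs, 21.4, 23.2 and 23.8 CPM with IR-813) and did not pass (0.21 ± 0.13). The rule for counting reads in the overlap is not stated.

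**Figure D3:**
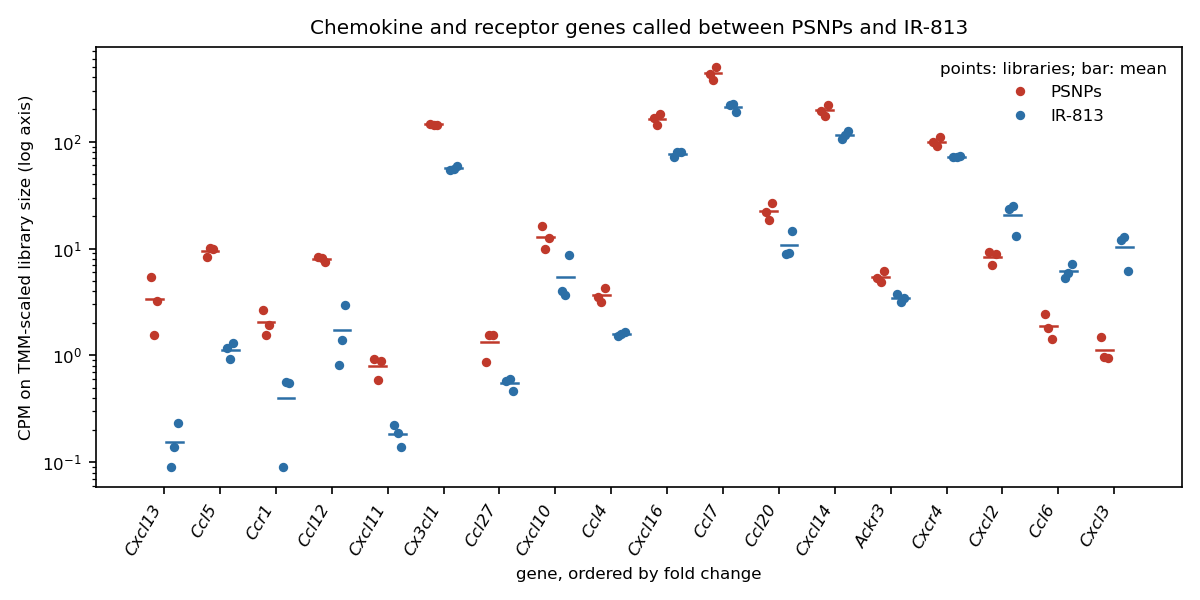
CPM on a log axis for the 18 genes that rose or fell, ordered by fold change, with PSNPs (red) left of IR-813 (blue) for each gene, a point per library and a bar at the mean of 3. The groups do not overlap for any of these genes, from Cxcl13 (mean 3.40 against 0.154 CPM) to Cxcl3 (1.12 against 10.4 CPM). These genes were chosen by a test on the same libraries, and the groups do not overlap for 61.4% of all tested genes.

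The ELR chemokines signal through CXCR2 and recruit neutrophils. Cxcl3 was at 1.47, 0.955 and 0.939 CPM in PSNPs libraries, against 12.1, 12.8 and 6.15 CPM in IR-813 libraries. Even IR-813 replicate 3, the lowest of its group, was far above all PSNPs libraries, and Cxcl3 fell by 3.19 ± 0.35 on the log2 scale (edgeR adjusted p = 0.000768). Cxcl2 (MIP-2) was at 9.24, 7.01 and 8.97 CPM with PSNPs, against 23.4, 24.8 and 13.1 CPM with IR-813. IR-813 replicate 3 was again the lowest of its group but above all PSNPs libraries, and Cxcl2 fell by 1.28 ± 0.26 (edgeR adjusted p = 0.00807). Cxcl1, the highest of the 4 on the deposited log2 scale, was at 201, 194 and 236 CPM with PSNPs and at 285, 302 and 205 CPM with IR-813. IR-813 replicate 3 was again low and fell among the PSNPs libraries, and Cxcl1 did not pass (−0.33 ± 0.16, edgeR adjusted p = 0.143). Its adjusted p was 0.0287 when IR-813 replicate 3 was left out and 0.0458 when PSNPs replicate 3 was (15 alternatives spanned 0.0287 to 1.00).

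Cxcl6, which the annotation also lists as Cxcl5, was at 3.82, 1.91 and 1.51 CPM with PSNPs and at 1.66, 2.93 and 2.82 CPM with IR-813. The groups overlapped throughout, and the value of −0.02 ± 0.39 (edgeR adjusted p = 0.973) changed sign in 4 of 15 alternatives. These genes are paralogs of similar sequence, so reads could be split between them depending on how they were counted, which is not stated. Their shared receptor gene Cxcr2 had 2, 0 and 1 counts with PSNPs and 3, 2 and 2 counts with IR-813.

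Of the CXC chemokines without ELR, the interferon-inducible CXCR3 ligands Cxcl10 and Cxcl11 rose. Cxcl10 was at 16.4, 9.92 and 12.4 CPM with PSNPs, against 3.98, 3.63 and 8.74 CPM with IR-813. IR-813 replicate 3 came close to the lowest PSNPs library, and Cxcl10 rose 2.37-fold (1.25 ± 0.36, edgeR adjusted p = 0.0317). That adjusted p was 0.0900 when PSNPs replicate 1 was left out, 0.112 for IR-813 replicate 1 and 0.103 for IR-813 replicate 2 (15 alternatives spanned 0.00197 to 0.167). Cxcl11 was at 0.919, 0.584 and 0.887 CPM with PSNPs and at 0.224, 0.186 and 0.139 CPM with IR-813. Its counts were low, 20, 11 and 17 with PSNPs and 5, 4 and 3 with IR-813, but kept apart, and it rose by 2.09 ± 0.35 (edgeR adjusted p = 0.00369). Cxcl9, the remaining ligand, was under the filter with 13, 19 and 9 counts with PSNPs and 0, 2 and 4 counts with IR-813. With no filter its log2 fold change was 2.84 ± 0.68 (edgeR adjusted p = 0.0154). Cxcl10 and Cxcl11 overlap Art3 in the GRCr8 annotation, which had between 2 and 7 counts in every library. Their receptor gene Cxcr3 had 2, 1 and 0 counts with PSNPs and 2, 0 and 0 counts with IR-813.

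Cxcl13, which draws B cells through CXCR5, had the largest fold change of the 27 tested genes. It was at 5.42, 1.54 and 3.24 CPM in PSNPs libraries, against 0.0895, 0.140 and 0.231 CPM in IR-813 libraries, which is 118, 29 and 62 counts against 2, 3 and 5. The PSNPs libraries differed among themselves by more than 3-fold but all stood far above IR-813, and Cxcl13 rose by 4.43 ± 0.63 on the log2 scale (edgeR adjusted p = 0.00211). The scaling of the deposited log2 values is not stated. None is below 0, and 22451 of the 22463 values with a count of 0 are 0, so a pseudocount of 1, which would understate changes of low genes, was inferred. On that scale the difference was 1.89. Cxcr5 had 4, 1 and 2 counts with PSNPs and 1, 4 and 2 counts with IR-813.

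Cxcl16 is made as a membrane-bound protein that binds oxidised lipids and, once shed, attracts cells with CXCR6. It was at 168, 143 and 182 CPM with PSNPs, against 71.8, 79.3 and 79.4 CPM with IR-813. The groups were far apart, and Cxcl16 rose 2.14-fold (1.10 ± 0.11, edgeR adjusted p = 0.000512). It overlaps Zmynd15 in GRCr8, a gene at 7.22, 4.30 and 5.79 CPM with PSNPs and 3.49, 4.01 and 3.42 CPM with IR-813. Its receptor gene Cxcr6 had 1 count in PSNPs replicate 2 and none elsewhere. Cxcl14, a conserved chemokine whose receptor is debated, was at 194, 173 and 223 CPM with PSNPs and at 106, 115 and 125 CPM with IR-813. Again no library of the 2 groups overlapped, and it rose 1.70-fold (0.77 ± 0.12, edgeR adjusted p = 0.00266).

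Cxcl12 (SDF-1), which guides migrating neural and blood cells through CXCR4, was at 93.1, 89.3 and 75.8 CPM with PSNPs and at 74.8, 78.0 and 82.3 CPM with IR-813. PSNPs replicate 3 lay among the IR-813 libraries, and the gene did not pass (0.13 ± 0.10, edgeR adjusted p = 0.323). It passed without PSNPs replicate 3 (0.22, adjusted p = 0.0118) and by limma on the deposited log2 values (0.33, adjusted p = 0.0169), and 15 alternatives spanned 0.0118 to 1.00. Its deposited log2 values were 4.94, 4.83 and 4.91 with PSNPs and 4.50, 4.58 and 4.61 with IR-813, so that PSNPs replicate 3 is not low on that scale.

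The receptor Cxcr4 was at 98.6, 90.6 and 109.7 CPM with PSNPs, against 71.3, 71.5 and 72.9 CPM with IR-813. IR-813 libraries were nearly equal and all below PSNPs, and Cxcr4 rose 1.39-fold (0.47 ± 0.09, edgeR adjusted p = 0.00732). Ackr3 (CXCR7), an atypical receptor that scavenges CXCL12 and CXCL11, was at 5.33, 4.88 and 6.10 CPM with PSNPs and at 3.71, 3.17 and 3.47 CPM with IR-813. It also rose, by 0.66 ± 0.15 on the log2 scale (edgeR adjusted p = 0.0136), with an adjusted p of 0.0711 without IR-813 replicate 2. The 15 alternatives spanned 0.0113 to 0.552, the latter with the minimum fold of 1.5.

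Cx3cl1 (fractalkine) is a membrane-bound chemokine of neurons that restrains microglia through CX3CR1. It was at 148, 143 and 144 CPM in PSNPs libraries, against 53.9, 55.4 and 59.5 CPM in IR-813 libraries. Replicates differed little within either group, and Cx3cl1 rose 2.58-fold (1.36 ± 0.08, edgeR adjusted p = 0.000101). The receptor gene Cx3cr1, which the symbol rule does not take, was at 17.4, 13.6 and 9.86 CPM with PSNPs and at 30.2, 39.1 and 49.3 CPM with IR-813. It fell by 1.54 ± 0.25 (edgeR adjusted p = 0.00361) and is one of the 8 of 10 microglia markers that fell. Neuron markers, 10 genes that sum to 161 to 194 CPM with PSNPs and 354 to 371 CPM with IR-813, did not rise with the ligand (0 higher and 6 lower of 8 tested). Whether neurons or other cells hold the Cx3cl1 RNA was not tested.

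Xcl1 (lymphotactin), the XC ligand known from T and NK cells, was at 1.33, 1.33 and 1.67 CPM with PSNPs and at 1.21, 0.699 and 0.694 CPM with IR-813. The groups did not overlap, but Xcl1 did not pass (0.73 ± 0.28, edgeR adjusted p = 0.0746). It passed without IR-813 replicate 1 (1.04, adjusted p = 0.0337) and by limma on the deposited log2 values (adjusted p = 0.0400), and 15 alternatives spanned 0.0337 to 0.570. The receptor gene Xcr1 had 1 count in each of IR-813 replicates 1 and 2 and none elsewhere.

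Few receptors were measured at all. Ccr1, a receptor for CCL3 and CCL5 on myeloid cells, was at 2.67, 1.54 and 1.93 CPM with PSNPs, against 0.0895, 0.559 and 0.555 CPM with IR-813. In counts this is 58, 29 and 37 against 2, 12 and 12, and Ccr1 rose by 2.35 ± 0.49 on the log2 scale (edgeR adjusted p = 0.00872). On the deposited log2 scale the difference was 0.82. Of 10 microglia markers 8 fell, and the part of cell makeup in the Ccr1 result was not tested. Ccrl2, which binds chemerin without the usual signal, was at 1.84, 0.796 and 2.45 CPM with PSNPs and at 2.15, 2.33 and 2.68 CPM with IR-813. It did not pass (−0.49 ± 0.36, edgeR adjusted p = 0.307).

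**Figure D4:**
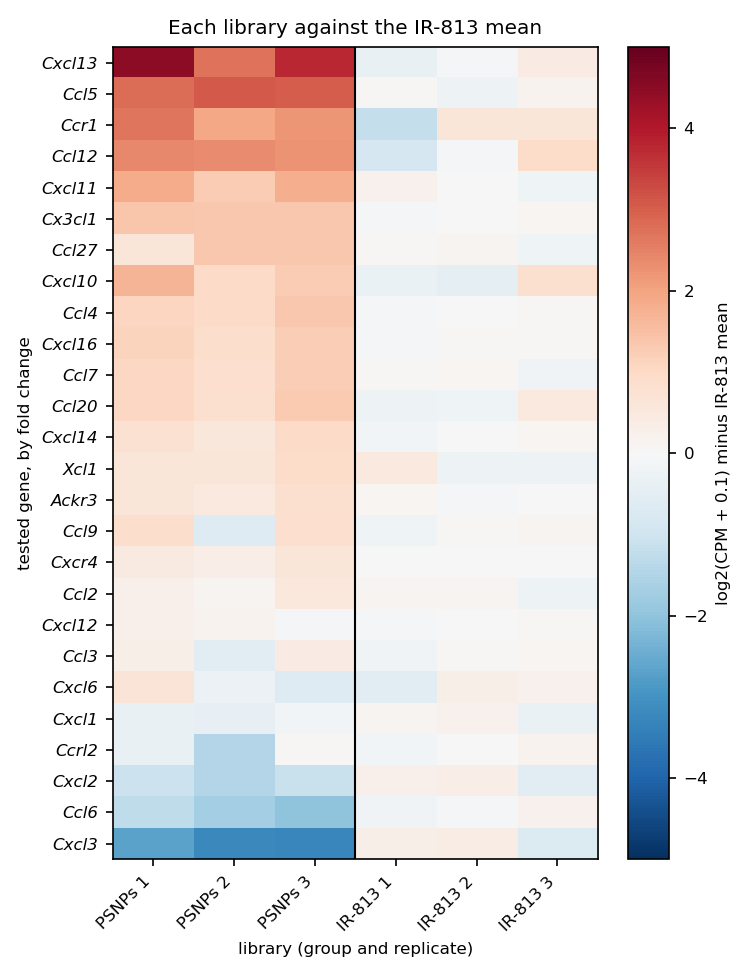
Difference of each library from the IR-813 mean, as log2 of CPM plus 0.1, for 26 of the 27 tested genes in rows and the 6 libraries in columns (PSNPs left of the line). Red is above and blue is below the IR-813 mean. Ccl12, Cxcl10 and Ccl20 are above the mean of their group and Cxcl1, Cxcl2 and Cxcl3 below it in IR-813 replicate 3.

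The other 26 genes were under the filter. Of these, 8 had no count in any library (Ccl1, Ccl11, Ccl17, Ccl21, Ccl26, Ccr1l1, Ccr3 and Ccr4), where a count of 0 allows up to 0.134 to 0.159 CPM per library (3 counts; counting error only). A further 10 had between 1 and 9 counts over all 6 libraries, with at most 3 in any one. They were the ligands Ccl25 and Ccl28, the receptors Ccr6, Ccr7, Ccr9, Cxcr1, Cxcr3, Cxcr6 and Xcr1, and the scavenging receptor Ackr2. At this depth no difference in them was detectable.

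The remaining 8 had 10 or more counts in all. Besides Cxcl9, Cxcr2 and Cxcr5, these were Ccl19, Ccl22, Ccl24, Ccr10 and Cxcl17. Ccl24 (eotaxin-2) had 6, 3 and 12 counts with PSNPs and 1, 1 and 2 counts with IR-813, and with no filter it was at 2.42 ± 0.74 (edgeR adjusted p = 0.0381). Ccl19, a CCR7 ligand, had 7, 1 and 8 counts with PSNPs and 6, 6 and 10 counts with IR-813. Ccl22, a macrophage product that binds CCR4, had 8, 0 and 3 counts with PSNPs and 6, 8 and 6 counts with IR-813. Ccr10, the receptor for CCL27 and CCL28, had 7, 8 and 12 counts with PSNPs and 6, 1 and 8 counts with IR-813. Cxcl17 had 5, 3 and 3 counts with PSNPs and 4, 4 and 1 counts with IR-813. With no filter 17 genes rose and 3 fell of 45 tested.

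Levels of different genes can be compared on the deposited log2 values, which appear from the values to carry a factor per gene like a length, though this is not stated. On that scale Ccl2 led the ligands in both groups, at 10.3 ± 0.24 with PSNPs and 9.94 ± 0.23 with IR-813 (mean ± SD, n = 3 each). With PSNPs, Ccl7 followed at 9.39 ± 0.24, then Cxcl1 at 8.08 ± 0.19, Cxcl14 at 7.05 ± 0.21 and Cxcl16 at 6.70 ± 0.20. With IR-813, Cxcl1 at 8.38 ± 0.30 and Ccl7 at 8.34 ± 0.14 came next and did not differ beyond their spread, followed by Cxcl14 at 6.29 ± 0.11, Cxcl16 at 5.62 ± 0.08 and Ccl3 at 5.62 ± 0.16. Ccl3 with PSNPs was at 5.68 ± 0.54 and did not differ beyond its spread from Cx3cl1 at 5.63 ± 0.03.

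Cxcr4 was the highest receptor in both groups, at 5.99 ± 0.16 with PSNPs and 5.53 ± 0.02 with IR-813. Cx3cr1 was at 3.61 ± 0.35 with PSNPs and at 5.06 ± 0.34 with IR-813. Ackr3 was at 1.99 ± 0.14 with PSNPs and 1.52 ± 0.07 with IR-813. Ccr1 stood at 1.11 ± 0.21 with PSNPs and 0.29 ± 0.19 with IR-813, and Ccrl2 at 0.91 ± 0.37 with PSNPs and 1.18 ± 0.09 with IR-813. With PSNPs these last 2 did not differ beyond their spread.

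**Figure D5:**
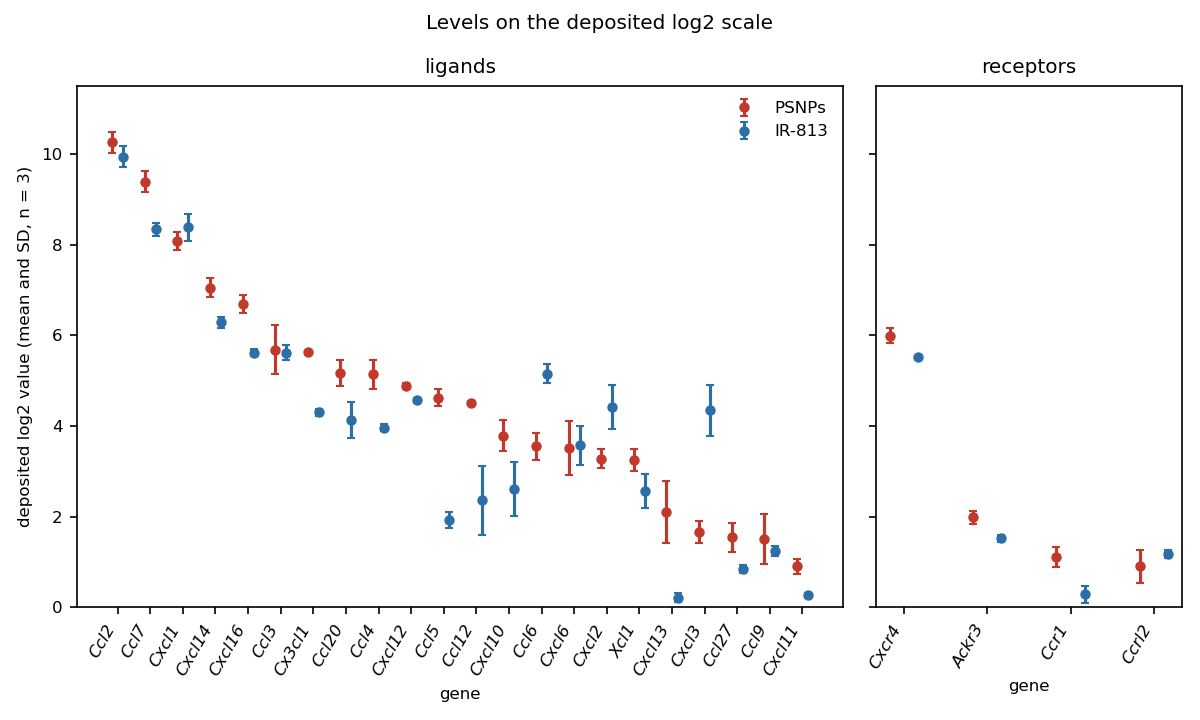
Deposited log2 value (mean and SD of 3 libraries) of the 22 tested ligands and 4 of the 5 tested receptors, PSNPs (red) left of IR-813 (blue), ordered by the PSNPs mean. Ccl2, Ccl7 and Cxcl1 lead the ligands, and among these receptors Cxcr4 stands above the others.

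Set beside each other, 33 known ligand and receptor pairs gave few in which both genes were measured. The list does not hold every known pair. Ccl7, for one, was set beside Ccr2 only, so the counts below hold for these 33 pairs alone. Both members were tested in 9 pairs. In 2 of these, Ccl5 with Ccr1 and Cxcl11 with Ackr3, both rose. In the pair of Cx3cl1 and Cx3cr1 the ligand rose and the receptor fell. In 8 pairs the ligand was called and the receptor was under the filter, as for Cxcl10 with Cxcr3, Cxcl16 with Cxcr6, Cxcl13 with Cxcr5 and Ccl20 with Ccr6.

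Relatives that the symbol rule leaves out were measured too. Pf4 (CXCL4), a platelet chemokine that border macrophages also make, was at 1.38, 0.637 and 2.35 CPM with PSNPs, against 9.66, 13.2 and 14.6 CPM with IR-813, and fell by 3.09 ± 0.39 (edgeR adjusted p = 0.00129). Mif, a cytokine that binds CXCR2 and CXCR4, was at 239, 226 and 334 CPM with PSNPs, against 122, 128 and 132 CPM with IR-813, and rose by 1.06 ± 0.15 (edgeR adjusted p = 0.00225). Its receptor chain Cd74 rose by 2.46 ± 0.29 (edgeR adjusted p = 0.000962). Cmklr1, the signalling receptor for chemerin, was at 13.5, 8.65 and 9.65 CPM with PSNPs and at 19.1, 22.0 and 26.5 CPM with IR-813 and fell by 1.09 ± 0.20 (edgeR adjusted p = 0.00602). The chemerin gene Rarres2 did not pass (−0.19 ± 0.29). Ppbp had no count, and Gpr35 had no count with IR-813 and a mean of 0.0153 CPM with PSNPs.

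Of 28 tested genes of signalling below chemokine receptors, 5 rose (17.9%, beside 20.9% of all tested genes) and 12 fell (42.9%, beside 20.1%), with a median of −0.32. Itgal, the integrin chain of LFA-1 that arrests leukocytes, fell by 2.00 ± 0.14 (edgeR adjusted p = 0.000165) and Plcb2, a phospholipase of myeloid cells, by 1.19 ± 0.13 (adjusted p = 0.000704). Rgs1, which dampens G protein signals from chemokine receptors, rose by 1.24 ± 0.16 (edgeR adjusted p = 0.00129). Without PSNPs replicate 3, 9 rose, and without IR-813 replicates 2 or 3, 5 or 7 fell. Itgam, another myeloid integrin chain, and Plcb3, another phospholipase, did not pass (−0.29 and 0.27), and both were named after their values were seen. Itgal and Plcb2 fell beside 8 of 10 microglia markers, whose part was not tested.

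Of 18 tested genes of chemokine shedding, trimming and matrix binding, 8 rose (44.4%, beside 20.9% of all tested genes) and 4 fell (22.2%, near the 20.1% over all), with a median of 0.15. Mmp14, a membrane-bound metalloproteinase that cuts chemokines, was at 241 ± 21.7 CPM with PSNPs and 121 ± 4.83 CPM with IR-813 (SD, n = 3 each) and rose by 1.00 ± 0.09 (edgeR adjusted p = 0.000379). Mmp2, which trims CXCL12 and CCL7, was at 24.6 ± 0.851 CPM with PSNPs and 8.71 ± 1.62 CPM with IR-813 (SD, n = 3 each) and rose by 1.5 ± 0.15 (edgeR adjusted p = 0.000594). Sdc3, a heparan sulfate proteoglycan of the cell surface, fell by 0.93 ± 0.08 (edgeR adjusted p = 0.000310). Without IR-813 replicate 2, 2 fell.

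Of 22 tested genes of chemokine transcription and mRNA decay, 10 rose (45.5%, beside 20.9% of all tested genes) and 4 fell (18.2%, near the 20.1% over all), with a median of 0.31. Nfkbiz, a nuclear cofactor of NF-kB, rose by 1.02 ± 0.12 (edgeR adjusted p = 0.000871) and Nfkbia, the NF-kB inhibitor and target, by 0.74 ± 0.10 (adjusted p = 0.00169). Irf1, an interferon-induced factor, rose by 0.69 ± 0.13 (edgeR adjusted p = 0.00664). The rises numbered 6 with library size alone, 5 when PSNPs replicate 1 was left out and 4 when either IR-813 replicate 1 or replicate 2 was. The falls numbered 2 without PSNPs replicates 1 or 2 and without IR-813 replicates 1 or 2.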

How the data were processed

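RNA was measured in 6 libraries, 3 with PSNPs and 3 with IR-813, grouped by sample title. Per the labels' protocols, polyadenylated RNA was selected and the kit is not stated to keep strand. The authors deposited whole-number counts per gene symbol and, per library, log2 values whose scaling is not stated. The submitters' processing notes name bcl2fastq and mRatBN7.2, while the sources used here do not give aligner, counter, annotation or strand use.

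Counts were filtered with filterByExpr (11679 of 16876 genes), TMM-scaled and tested by glmQLFit and glmQLFTest (edgeR 4.0.16, R 4.3.3) with treatment as the only term, adjusted over all genes and called at an adjusted p under 0.05. The SE is the log2 fold change over the square root of F. Fits were tested on simulated data. Alternatives used RLE factors, library size alone, DESeq2 1.42.0, limma 3.58.1, other filters, a replicate block, a minimum fold of 1.5 and each library left out. Members, lists and motifs were chosen with earlier results of these data known.

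Of the 53 genes, 1 tested gene that did not pass is counted but not reported here. The others are given: called genes with every library, other tested genes with their values, and genes under the filter with a total of 10 or more counts by their counts. Of each companion list the 3 called genes with the smallest p are named. The libraries held between 19166605 and 22553507 counts, and p-values measure only the spread between these libraries, which may be technical. The reference of gene names is GRCr8, a different build from that of the counts, so it gave names, neighbours and promoter windows only. The reads carry no stated molecular identifiers, so counting error is a lower limit.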

Additional observations from a re-analysis of the deposited data

How the results depend on the processing

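Of the 18 genes that rose or fell, 10 kept the call under all 15 alternatives, Cxcl11 kept it under the 14 in which it was tested, 7 lost it under at least 1 and 0 changed direction. With a minimum fold of 1.5 tested in place of any change, 9 genes rose and 2 fell, and that test ended the calls of Ackr3, Ccl20, Ccl27, Cxcl10, Cxcl14, Cxcl2 and Cxcr4. Leaving out 1 library gave 11 to 17 genes higher (11 without IR-813 replicate 2), 3 to 4 lower and a median log2 fold change between 0.68 and 0.90. Between 13 and 17 rose and 3 fell with RLE factors, library size alone, DESeq2, limma voom, the deposited log2 values or other filters, with medians between 0.64 and 0.77. With the replicate block 15 rose and 3 fell (median 0.76). The same-numbered samples had correlations of −0.01, 0.01 and 0.12 of their deviations, so the numbers were not taken as pairs, and 2 of the 6 samples correlated best with their own number. Among genes that did not pass, the sign turned for Ccl3 without PSNPs replicate 3 (−0.056, in a leave-one-out range of −0.056 to 0.36) and for Cxcl6 without PSNPs replicate 2 (0.13), PSNPs replicate 3 (0.24), IR-813 replicate 2 (0.12) or IR-813 replicate 3 (0.09), in a leave-one-out range of −0.53 to 0.24. On the deposited log2 scale, whose inferred pseudocount would shrink changes of low genes, Cxcl13 was at 1.89, Ccr1 at 0.82 and Cxcl11 at 0.64. The cause of the other shifts was not tested. Depth limits the genes with fewer than 10 counts in all.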

Other observations

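Cxcl12 differed between the deposited count and the deposited log2 value in a way that few genes did. The count per unlogged log2 value (unlogged with an inferred pseudocount of 1), relative to the median gene of the same library and to the IR-813 mean, was −0.16, −0.09 and −0.37 on the log2 scale in PSNPs replicates 1, 2 and 3, against −0.00, −0.02 and 0.02 in IR-813 replicates 1, 2 and 3. The mean shift with PSNPs was −0.20 and was larger in size than that of 99.96% of the 9909 genes with more than 20 counts and an unlogged value above 1 in every library, of which 99.7% stayed within 0.05. The cause was not tested. The mean shifts of the other chemokine and receptor genes with a value lay between −0.03 and 0.00. In PSNPs replicate 3 alone Ccl4 was at −0.14, Ccl6 at −0.09 and Cxcl6 at −0.07, with 0.01 to 0.02 in replicates 1 and 2. The mean shifts of Ccl4, Ccl6 and Cxcl6 were larger in size than those of 99.6%, 99.2% and 98.9% of the 9909 genes.

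IR-813 replicate 3 was the lowest library of its group for Cxcl1, Cxcl2, Cxcl3, Ccl2 and Ccl7 and the highest for Ccl12, Ccl20, Cxcl10 and Cxcl13. These genes were picked after their values were seen, and no test was made. PSNPs replicate 2 was the lowest library of its group for 19 of the 27 tested genes, among them Ccl3, Ccl9, Ccrl2 and Cxcl13. The share over all tested genes was not counted, so this is not read as a trait of these genes.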
